A study of Mus musculus with 2 samples.

Results

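The Cdc2-like kinases Clk1, Clk2, Clk3 and Clk4 and the SR protein kinases Srpk1 and Srpk2 were followed by RNA-seq in N2A cells, a mouse neuroblastoma line, with and without knockdown of the splicing repressor Ptbp1. The 6 genes were chosen by name from 21424 genes with a symbol in the isoform files. SpliceTrap had scored 119 exon trios inside these genes, out of 228333 in all, and each of the 119 held at least 20 reads in both libraries, as did 145628 of the whole set. A trio is a middle region with its upstream and downstream flanks, and its inclusion ratio is the share of transcripts that keep the middle region, so that for the intron retention class it is the share that keep the intron. The 119 trios cover 84 distinct regions, since 1 region can stand between different flanks. One library came from cells transfected with the control shRNA (shControl) and 1 from cells transfected with an shRNA against Ptbp1 (shptbp1), and both were collected 3 days after Lipofectamine transfection of the same line in the same medium. With 1 library per group, there is no replicate error and the conditions were not tested. Intervals and Fisher's exact tests below compare the reads of those libraries, and they cover counting error only.

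SR proteins carry a tail of arginine and serine repeats whose phosphorylation sets where they are and how they act in splicing. Srpk1 and Srpk2 are mostly cytoplasmic, phosphorylate this tail and promote the import of SR proteins into the nucleus, where the Clk kinases phosphorylate them further and release them from speckles. Clk pre-mRNAs are themselves alternatively spliced, and skipping of an early exon, exon 4 of Clk1, gives a truncated form without the catalytic domain, while transcripts that keep the introns beside this exon are held in the nucleus.

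The junction reads of the libraries summed to 74382387 in the control and 58295142 in the knockdown, over 406367 distinct junctions. Ptbp1, the target of the shRNA, had 546 junction reads per 1000000 (parts per 1000000, ppm) in the control and 183 ppm in the knockdown library, a log2 ratio of -1.58 (95% exact interval -1.61 to -1.54). Ptbp2, its neuronal paralog, had 76.4 and 184 ppm. A read that crosses several junctions can count at each, so the exact intervals of such gene sums, here and below, can be too narrow. The 20 neuroblastoma lineage markers summed to 3749 and 4321 ppm of the depth over all isoforms. By junction reads 5 of the 16 with enough reads were past 1.5-fold up and none down, beside 17.7% up and 1.34% down of all genes. The part of these markers in the results was not tested. Uchl1 was at 1025 and 1191 ppm and Dbh at 36.1 and 151 ppm, Tubb3 was at 472 and 411 ppm and Stmn2 at 170 and 127 ppm, and Nefl and Nefm were near 0 in both. The fibroblast markers summed to 1.51 and 3.28 ppm, those of glia to 8.96 and 6.41, those of muscle to 0.871 and 1.82, and those of immune cells to 0.0213 and 0.0763.

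The splicing difference with the most support lay at the start of Clk4. A pair of short exons between exon 2 and exon 3, of 67 and 59 nt, compete with direct joining of exon 2 to exon 3. The 67-nt exon lies on the plus strand at chr11:51081667-51081733 of mm9 and the 59-nt exon at chr11:51084039-51084097. Both are printed from the NCBIM37 assembly, which is mm9, with the exon in capitals, the 100 bases before it and the 20 bases after it in lower case. The windows are chr11:51081567-51081753 and chr11:51083939-51084117.
Clk4 67-nt exon: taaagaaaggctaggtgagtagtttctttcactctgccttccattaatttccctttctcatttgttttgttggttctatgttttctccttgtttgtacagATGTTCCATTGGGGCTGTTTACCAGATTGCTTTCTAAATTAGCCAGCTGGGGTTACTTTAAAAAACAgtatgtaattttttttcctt
Clk4 59-nt exon: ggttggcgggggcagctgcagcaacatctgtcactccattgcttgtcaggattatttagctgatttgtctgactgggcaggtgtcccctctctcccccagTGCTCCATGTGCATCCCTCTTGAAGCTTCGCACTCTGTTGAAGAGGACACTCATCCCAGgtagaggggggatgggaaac
Both exons start after AG and end before GT. Of the 50 bases before the exon, 76.0% were pyrimidines for the 67-nt exon and 64.0% for the 59-nt exon. The GENCODE annotation has 14 Clk4 transcripts. The 67-nt exon is in 5 of them, of which 3 are listed as subject to nonsense-mediated decay, 1 as protein coding and 1 as retaining an intron. The 59-nt exon is in 3, and all 3 are listed as subject to nonsense-mediated decay. Neither length is a multiple of 3.

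The second set of sequences is the exon whose skipping gives the truncated Clk forms, in each of the 4 Clk genes. It is numbered exon 4 here after Clk1. In each gene it is followed by an exon of 67 nt. The exon is in capitals, with 30 bases before it and 10 after it in lower case. The windows, on mm9, are chr1:58476955-58477085 on the minus strand for Clk1, chr3:88973510-88973634 on the plus strand for Clk2, chr9:57606424-57606560 on the minus strand for Clk3 and chr11:51086550-51086680 on the plus strand for Clk4.
Clk1 exon 4: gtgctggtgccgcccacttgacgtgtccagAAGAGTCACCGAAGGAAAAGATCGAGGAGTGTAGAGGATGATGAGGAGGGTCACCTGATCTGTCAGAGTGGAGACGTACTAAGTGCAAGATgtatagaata
Clk2 exon 4: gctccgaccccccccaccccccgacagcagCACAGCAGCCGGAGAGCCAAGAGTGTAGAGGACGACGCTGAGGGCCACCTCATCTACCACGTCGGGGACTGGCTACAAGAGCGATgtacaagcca
Clk3 exon 4: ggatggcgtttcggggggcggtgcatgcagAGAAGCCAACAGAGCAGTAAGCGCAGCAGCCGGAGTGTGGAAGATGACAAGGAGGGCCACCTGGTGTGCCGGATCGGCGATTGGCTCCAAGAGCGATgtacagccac
Clk4 exon 4: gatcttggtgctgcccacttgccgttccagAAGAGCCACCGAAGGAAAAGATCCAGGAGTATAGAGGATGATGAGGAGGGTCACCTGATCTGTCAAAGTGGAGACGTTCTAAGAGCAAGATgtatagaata
The exon is 91 nt in Clk1 and Clk4, 85 nt in Clk2 and 97 nt in Clk3, and each length leaves a remainder of 1 on division by 3. Clk1 and Clk4 shared 85 of 91 aligned positions (93.4%), and the other pairs shared between 59.3% and 65.3%. In all 4 genes the exon starts after AG and ends before GT.

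Of the 119 kinase trios, 9 moved by 5 points or more in inclusion, or 7.56%, beside 5.39% of all trios. There were 3 that rose (2.73% of all trios) and 6 that fell (2.66%). Clk4 held 4 of them, Clk1 and Clk2 2 each and Clk3 1, while none of the 17 Srpk1 trios and none of the 26 Srpk2 trios moved that far. In 3 of the 9, all in Clk4, the junction reads moved in the same direction with an interval that left out 0. Of all trios that moved by 5 points, 2158 of 7853 did so. Over all trios tested, that was 3 of 119 for the kinases and 1.48% for the whole set. After adjustment over all 145628 trios, 1 kinase trio passed a Fisher's exact test at an adjusted p of 0.05 (0.577% of all trios). Among the 14 kinase trios of the cassette class, 6 moved by 5 points (42.9%, beside 31.4% of all cassette trios), and among the 100 of the constitutive class 2 did (2.00%, beside 2.97%). Neither of the 2 alternative acceptor trios (22.1% of all such trios) nor the 1 alternative donor trio (21.9%) was called, and 1 of the 2 intron retention trios was (26.4%). The kinase share was therefore close to that of the whole set, and the median change over the 119 trios was 0.0 points. In 97 of the 119, inclusion was above 95% in both libraries.

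**Figure D1:**
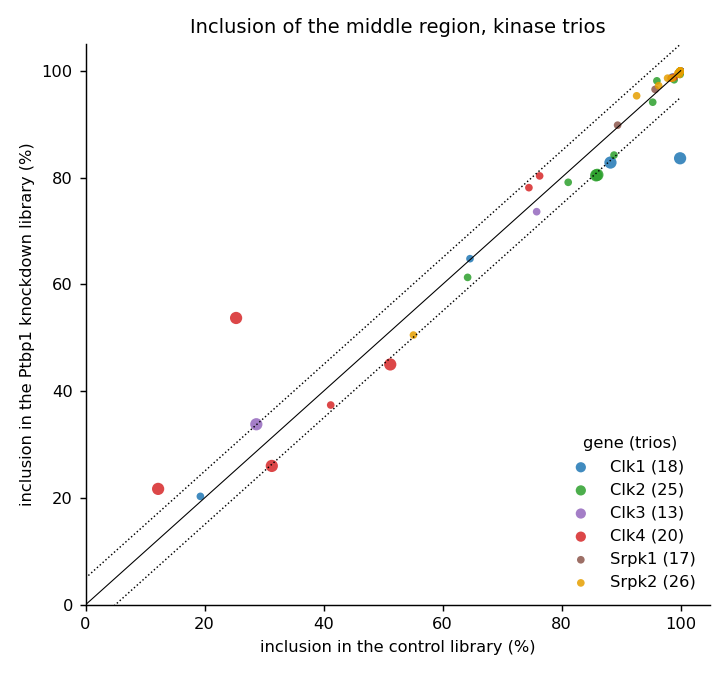
Inclusion of the middle region of the 119 kinase trios by SpliceTrap, in percent, in the control library (x axis) and the Ptbp1 knockdown library (y axis), colored by gene. Large points moved by 5 points or more, the solid line marks no change and the dotted lines 5 points. Of the 3 points above the upper dotted line, 2 are trios of the Clk4 67-nt exon and 1 is the last intron of Clk3, and most points lie near 100 in both libraries.

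The 67-nt exon of Clk4 was included more in the knockdown library. Between exon 2 and the 59-nt exon, its inclusion was 25.3% in the control and 53.7% in the knockdown library. This trio had 72 and 7 reads on the inclusion junctions and 79 on the skipping junction in the control, and 109 and 6 against 32 in the knockdown. From these junction reads alone, inclusion was 33.3% (95% Wilson interval 25.5 to 42.2) and 64.2% (53.9 to 73.4). The difference was 30.9 points, with a 95% Newcombe interval of 17.3 to 43.0 and an adjusted p of 0.00338 by a two-sided Fisher's exact test over all trios. The downstream inclusion junction was far below the upstream one in both libraries, and with the smaller of the inclusion junctions the difference was 7.6 points and no kinase trio passed the adjusted test. Between exon 2 and exon 3, inclusion of the same exon was 12.2% and 21.7%. The junction reads of that trio were 71, 13 and 286 in the control and 102, 24 and 241 in the knockdown, a difference of 7.92 points (2.10 to 13.8), with an adjusted p of 0.743 by Fisher's exact test.

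Inclusion of the 59-nt exon was lower in the knockdown library. It fell from 31.3% to 26.0% between exon 2 and exon 3, and from 51.2% to 45.0% between the 67-nt exon and exon 3. The junction reads gave a change of -6.07 points (-12.5 to 0.587) in the first of these and -13.0 points (-24.7 to -0.984) in the second. Neither passed Fisher's exact test after adjustment, with adjusted p = 1.00 for each. These trios share junctions with those of the 67-nt exon, so the 4 Clk4 trios are not 4 separate observations.

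The same junctions can be read as a choice made at the end of exon 2. Where a junction stood in several trios its counts differed, and the largest count was used. Exon 2 was joined to the 67-nt exon by 72 of 513 reads in the control library (14.0%, with Wilson bounds of 11.3 and 17.3) and by 109 of 433 in the knockdown library (25.2%, 21.3 to 29.5). The difference was 11.1 points (6.08 to 16.2). Exon 2 was joined to the 59-nt exon by 121 reads in the control (23.6%, 20.1 to 27.4) and 57 in the knockdown (13.2%, 10.3 to 16.7), a difference of -10.4 points (-15.2 to -5.49). The share joined directly to exon 3 was 62.4% (58.1 to 66.5) and 61.7% (57.0 to 66.1), a difference of -0.715 points (-6.91 to 5.46). Among the reads leaving exon 2, the gain of the 67-nt exon thus stood beside a loss of like size for the 59-nt exon. The share of direct joining differed by less than the counting error. Reads from the 59-nt exon into exon 3 did not show this loss, with 27.6% and 27.2% of the reads at the start of exon 3.

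**Figure D2:**
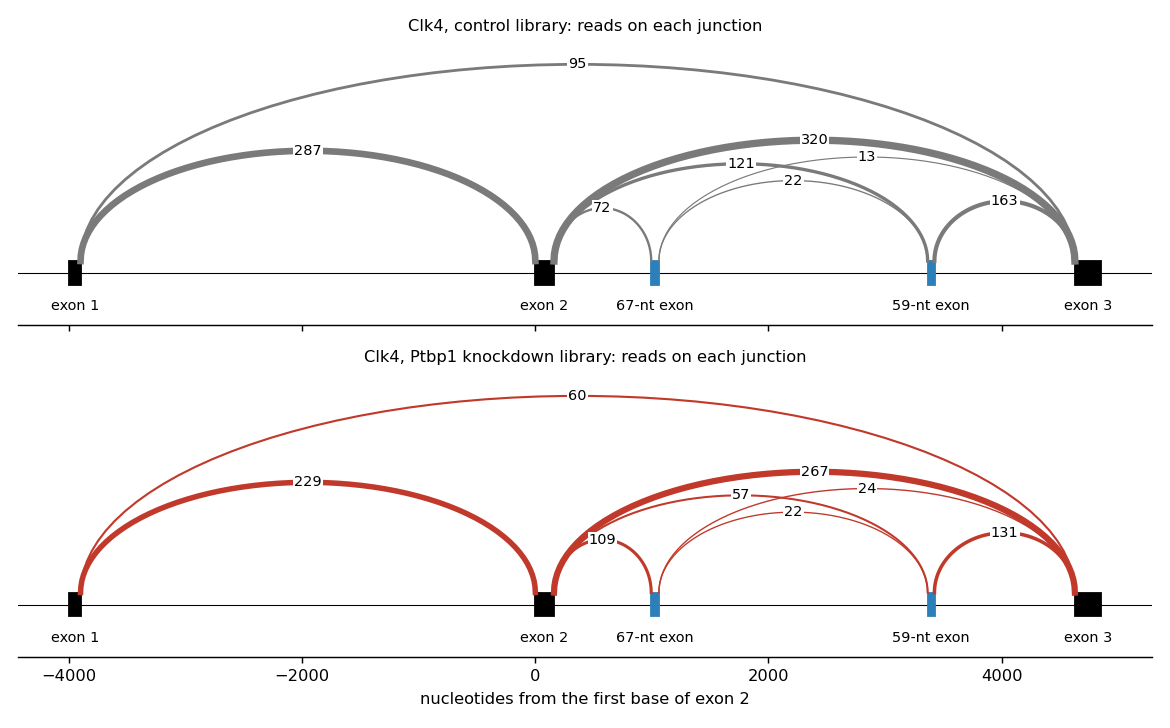
Reads on each junction among Clk4 exons 1 to 3 in the control library (top, gray) and the Ptbp1 knockdown library (bottom, red). The x axis gives nucleotides from the first base of exon 2, boxes are exons and the number on each arc is its read count, which also sets the line width. The arc from exon 2 to the 67-nt exon rose from 72 to 109 reads, and that from exon 2 to the 59-nt exon fell from 121 to 57.

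**Figure D3:**
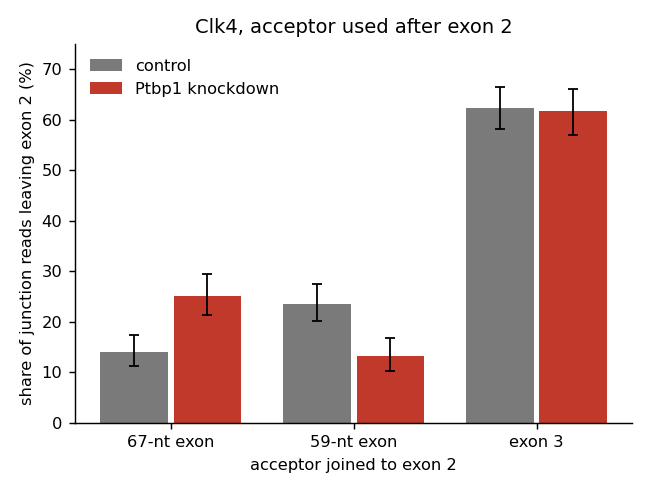
Share of the junction reads leaving Clk4 exon 2 that joined each of 3 acceptors, in percent, for the control library (gray, 513 reads) and the Ptbp1 knockdown library (red, 433 reads). Bars are single libraries and whiskers are 95% Wilson intervals. The intervals of the libraries do not overlap for the 67-nt and 59-nt exons and overlap for exon 3.

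Fewer reads left the 67-nt exon than entered it. The listed junctions out of it, to the 59-nt exon and to exon 3, had 35 reads in the control and 46 in the knockdown, against 72 and 109 into it. Of the 5 annotated transcripts with this exon, 2 join it next to an exon of 78 nt, and that junction was in no trio of the database. At the start of exon 3, the share of reads that came from the 67-nt exon was 2.20% (1.29 to 3.73) of 591 reads in the control and 4.98% (3.37 to 7.30) of 482 in the knockdown. The share that came from the 59-nt exon was 27.6% (24.1 to 31.3) and 27.2% (23.4 to 31.3), so that the reads leaving this exon did not show the difference of the reads entering it. Exon 2 itself can be skipped. Its inclusion was 76.3% and 80.3% in 1 trio and 74.5% and 78.1% in the other, and the junction reads of the first gave a difference of 6.85 points (1.29 to 12.1), with an adjusted p of 1.00 by Fisher's exact test. That trio had 61 and 27 skipping reads, while the largest counts of the same junction were 95 and 60. With these, the share of reads at the start of exon 3 that came from exon 1 was 16.1% and 12.4%. The difference was -3.63 points (-7.77 to 0.623).

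Exon 4 of the Clk genes, the exon lost from the truncated kinases, gave differences within counting error in all 4 genes. In Clk1 its inclusion was 64.6% in the control and 64.8% in the knockdown library. In Clk2 it was 86.0% and 80.5% for the 85-nt form, in Clk3 75.8% and 73.6% and in Clk4 41.2% and 37.4%. Clk2 exon 4 also has an 88-nt form, from an acceptor 3 nt upstream, whose entering junction reads this trio leaves out. These Clk2 values therefore understate inclusion of the exon through either acceptor. The order of the genes, with Clk2 highest and Clk4 lowest, was the same in both libraries. The only change of 5 points was that of the Clk2 85-nt form, which had 20 skipping reads in the control and 27 in the knockdown. The 88-nt form of Clk2 moved by -4.6 points and was not called. By junction reads the differences were 0.735 points (-7.06 to 8.51) in Clk1, -4.08 (-11.1 to 2.86) in Clk2, -5.67 (-15.0 to 3.63) in Clk3 and -6.14 (-12.7 to 0.481) in Clk4. Each interval includes 0 and leaves room for a fall of more than 5 points, so a change of that size was not detectable at this depth. In the Cufflinks isoforms, those that skip the exon held 37.3% of the summed Clk3 depth in the control and 59.8% in the knockdown. These Clk3 isoforms were assembled separately in each library, and 14.4% of the control depth lay in an isoform that does not reach the exon. By junction reads, inclusion of the Clk3 exon was 78.2% and 72.5%. Isoforms that skip exon 4 held 31.7% and 29.4% in Clk1 and 23.2% and 23.7% in Clk4, and no Clk2 isoform skipped it. Clk1 and Clk4, with exon 4 sequences that are 93.4% identical, differed in their inclusion in both libraries, by Wilson intervals that do not overlap (61.4 to 72.4 against 41.7 to 50.9 in the control, and 62.1 to 73.1 against 35.6 to 45.0 in the knockdown).

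Clk2 exon 4 starts at either of a pair of acceptors 3 nt apart. The form of 88 nt went from 88.8% to 84.2%, just short of 5 points, and the form of 85 nt is listed in both the cassette and the constitutive class, with 85.8% and 80.4% in the second. These are the same reads, so the 2 called Clk2 trios are 1 event. Use of the upstream acceptor was 64.2% and 61.3%. The junction into the exon had 197 and 198 reads in the 88-nt trio and 122 and 129 in the cassette trio of 85 nt. Both trios were set against the same 20 and 27 skipping reads, so each leaves out the inclusion reads of the other form. Inclusion through both acceptors together was not computed. A second acceptor pair of this kind, at exon 3, was at 81.1% and 79.1%.

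**Figure D4:**
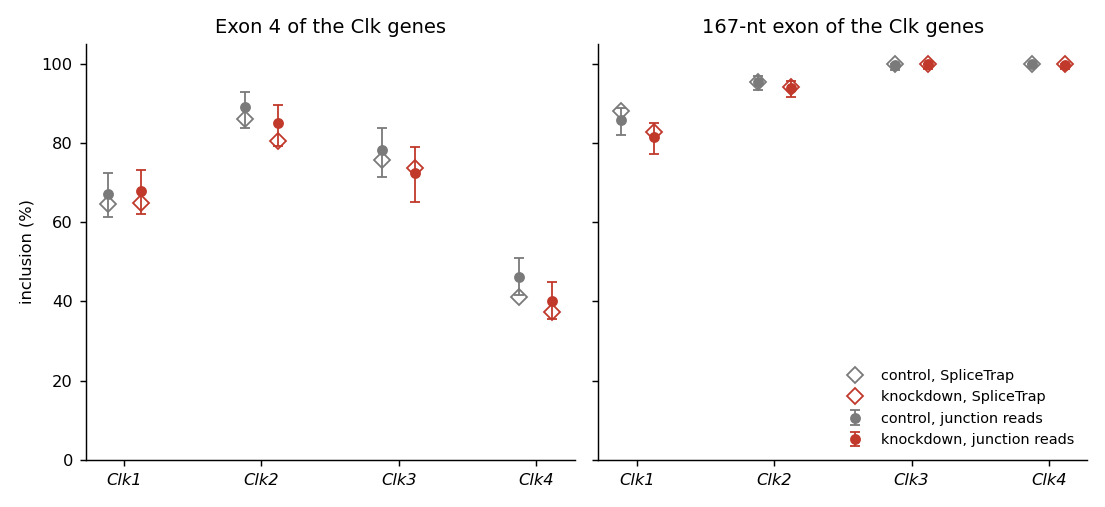
Inclusion of exon 4 (left) and of the 167-nt exon (right) of the 4 Clk genes, in percent. For Clk2 exon 4 only the 85-nt form is shown. Filled circles with 95% Wilson intervals come from junction reads and open diamonds are the SpliceTrap estimate, gray for the control and red for the Ptbp1 knockdown library. Exon 4 lies between 37.4% and 89.2% and the intervals of the libraries overlap in every gene, while the 167-nt exon is below 90% in Clk1 alone.

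A second exon inside the Clk genes was spliced differently from gene to gene. Each Clk gene has an exon of 167 nt downstream of exon 4. Its Clk1 copy is shown because it was the one that was often skipped, with the exon in capitals, in chr1:58473847-58474053 on the minus strand of mm9.
Clk1 167-nt exon: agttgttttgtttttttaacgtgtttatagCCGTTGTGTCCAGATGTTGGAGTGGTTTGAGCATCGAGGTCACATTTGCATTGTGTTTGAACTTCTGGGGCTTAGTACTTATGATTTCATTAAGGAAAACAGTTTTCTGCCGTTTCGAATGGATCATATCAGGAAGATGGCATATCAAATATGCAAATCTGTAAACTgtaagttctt
Inclusion of this exon in Clk1 went from 88.2% to 82.8%, with 55 skipping reads in the control and 69 in the knockdown. The junction reads gave -4.32 points (-9.62 to 0.957), with an adjusted p of 1.00 by Fisher's exact test. The exon was at 95.3% and 94.1% in Clk2, with 27 and 34 skipping reads, and at 99.9% in both libraries in Clk3 and Clk4. Among the 4 copies that of Clk1 thus had the lowest inclusion in both libraries, and its difference between the libraries was within counting error. By sequence, the Clk1 copy was closest to that of Clk4 (82.0% identity) and the Clk2 copy to that of Clk3 (77.8%).

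Retained introns were scored in 2 places. In Clk1 the trio spans both introns beside exon 4 (1349 nt, chr1:58476578-58477926), and its retention was 19.3% in the control and 20.3% in the knockdown library. At the donor of intron 3, unspliced reads were 53 of 403 (13.2%, 10.2 to 16.8) and 58 of 378 (15.3%, 12.1 to 19.3). At the acceptor of intron 4, they were 87 of 354 (24.6%, 20.4 to 29.3) and 56 of 338 (16.6%, 13.0 to 20.9), a difference of -8.01 points (-14.0 to -1.98). The difference at the donor was 2.19 points (-2.72 to 7.15), within counting error. For the whole region the SpliceTrap estimate differed by 1.0 point, and the junction reads gave 42.2% and 38.0%, a difference of -4.17 points (-14.8 to 6.61). The spliced reads of this trio are only those that join exon 3 to exon 5. Reads spliced through exon 4, 58.8% of those at the donor in the control, are left out. These junction values are therefore not the share of all transcripts that keep the introns. At the same acceptor, the reads joined from exon 4 went from 43.5% to 52.1%, and those joined from exon 3 were 31.9% and 31.4%. In the Cufflinks isoforms, those that keep an intron beside exon 4 held 27.9% of the summed Clk1 depth in the control and 24.2% in the knockdown. The corresponding Clk4 isoforms, all assembled separately in each library, held 24.7% and 14.5%, and no Clk2 or Clk3 isoform kept an intron there.

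The other retained intron was the last intron of Clk3 (615 nt, chr9:57598929-57599543). Its retention rose from 28.7% to 33.8%, a change of 5.1 points and the only called change among the 2 retention trios, beside 26.4% of all retention trios. Unspliced reads at its acceptor were 68 of 328 (20.7%, 16.7 to 25.4) and 50 of 236 (21.2%, 16.5 to 26.8). At its donor they were 82 of 342 (24.0%, 19.8 to 28.8) and 66 of 252 (26.2%, 21.1 to 31.9). The difference was 0.455 points (-6.22 to 7.40) at the acceptor and 2.21 points (-4.75 to 9.35) at the donor, both within counting error. Before the correction by SpliceTrap the change was 4.9 points and was not called.

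The largest fall by SpliceTrap was also in Clk1 and rested on few reads. A composite region of 1642 nt, which runs from exon 3 through both introns to the end of exon 5, was at 99.9% in the control and 83.6% in the knockdown library after correction, a change of -16.3 points. Before correction the values were 88.6% and 83.2%. The skipping junction had 0 reads in the control and 3 in the knockdown, and the junction reads gave -0.749 points (-2.18 to 0.355).

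No Srpk1 or Srpk2 trio moved by 5 points. Most of them were of the constitutive class (16 of 17 in Srpk1 and 24 of 26 in Srpk2), where 2.97% of all trios moved that far, and each gene had 1 trio of the cassette class. The Srpk1 trios changed by 0.0 to 0.8 points. The Srpk1 exon of 26 nt was at 89.4% and 89.8% in its less included trio, with 17 and 14 skipping reads and a junction difference of -0.209 points (-6.53 to 5.71), and that of 214 nt was at 95.7% and 96.5%. The Srpk2 trios changed by -4.6 to 2.7 points. The largest of these was an alternative donor that adds 27 nt, used in 55.1% and 50.5%, where the junction reads gave -7.56 points (-26.8 to 13.0). The Srpk2 exon of 26 nt was at 98.6% in both libraries.

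The RNA level of each kinase was read in 3 ways, since Cufflinks assembled transcripts separately in each library. These are the read bases on RefSeq isoforms as a share of the library total, the same over all isoforms that overlap exons of the gene, and the sum of distinct junction reads inside the gene. In such bulk samples, fewer cells with a transcript and less of it per cell cannot be told apart. By RefSeq isoforms, 2 of the 6 genes were past 1.5-fold, Clk2 up and Srpk2 down, beside 29.7% of 10017 genes (18.9% up and 10.8% down). By all isoforms none of the 6 was past 1.5-fold, beside 17.6% of 9527 genes (14.3% up and 3.29% down). By junction reads none was, beside 19.0% of 9575 genes (17.7% up and 1.34% down). Since each group is 1 library, these counts rest on no test.

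Srpk2 and Clk2 were the genes for which the measures parted most. Its RefSeq isoform took 91.3 ppm of the read bases in the control and 32.5 in the knockdown, a log2 ratio of -1.49 (-1.58 to -1.41 by the outermost Cufflinks bounds). An isoform that Cufflinks assembled in the knockdown library alone held 70.5% of the Srpk2 bases there, and over all isoforms the shares were 91.3 and 110 ppm, a log2 ratio of 0.27. Srpk2 junction reads were 5668 in the control and 5981 in the knockdown, or 76.2 and 103 ppm, a log2 ratio of 0.43 (0.38 to 0.48). For Clk2 the RefSeq measure moved the other way. Its RefSeq isoforms went from 17.8 to 39.9 ppm (log2 ratio 1.17), assembled isoforms held 57.9% of its bases in the control and none in the knockdown, and over all isoforms it was at 42.3 and 39.9 (log2 ratio -0.08). Its junction reads were 4947 and 4795, or 66.5 and 82.3 ppm (log2 ratio 0.31, 0.25 to 0.36).

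The RefSeq shares of the other kinases were 36.0 and 48.7 ppm for Clk1 (log2 ratio 0.44, bounds 0.11 to 0.77), 13.7 and 10.8 for Clk3 (-0.34, -0.56 to -0.12), 30.5 and 34.9 for Clk4 (0.19, 0.05 to 0.33) and 78.5 and 54.5 for Srpk1 (-0.53, -0.69 to -0.37). By junction reads the median of all 9575 genes was shifted up by 0.17 on the log2 scale, so changes are given here also against that median. Srpk2 stood 0.26 above it. Clk1 had 5212 and 5064 reads, a log2 ratio of 0.31 (0.25 to 0.37), and stood 0.14 above the median, as did Clk2. Clk4 had 5931 and 5233 reads and a log2 ratio of 0.17 (0.12 to 0.22), at the median. Clk3 had 3129 and 2368 reads and a log2 ratio of -0.05 (-0.13 to 0.03), and stood 0.22 below it, and Srpk1 had 16877 and 12707 reads and a log2 ratio of -0.06 (-0.09 to -0.02), at 0.23 below. All 6 lay between the percentiles 24.5 (Srpk1) and 73.5 (Srpk2) of all genes. Over all isoforms, Clk1 was at -0.13, Clk3 at -0.27, Clk4 at 0.06 and Srpk1 at -0.25. Clk3 and Srpk1 were below the median gene by these 3 measures. With gene FPKM their log2 ratios were 0.60 and 0.47, above its median of 0.32. With all isoforms of the Cufflinks locus that of Clk3 was 0.60. In that locus, which holds Arid3b in the knockdown library, isoforms not assigned to Clk3 had 45.0% of the bases there. They had 0% in the control, so the locus and gene FPKM values of Clk3 do not cover Clk3 alone. The sign of Clk1, Clk2 and Srpk2 differed among the 3 measures.

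**Figure D5:**
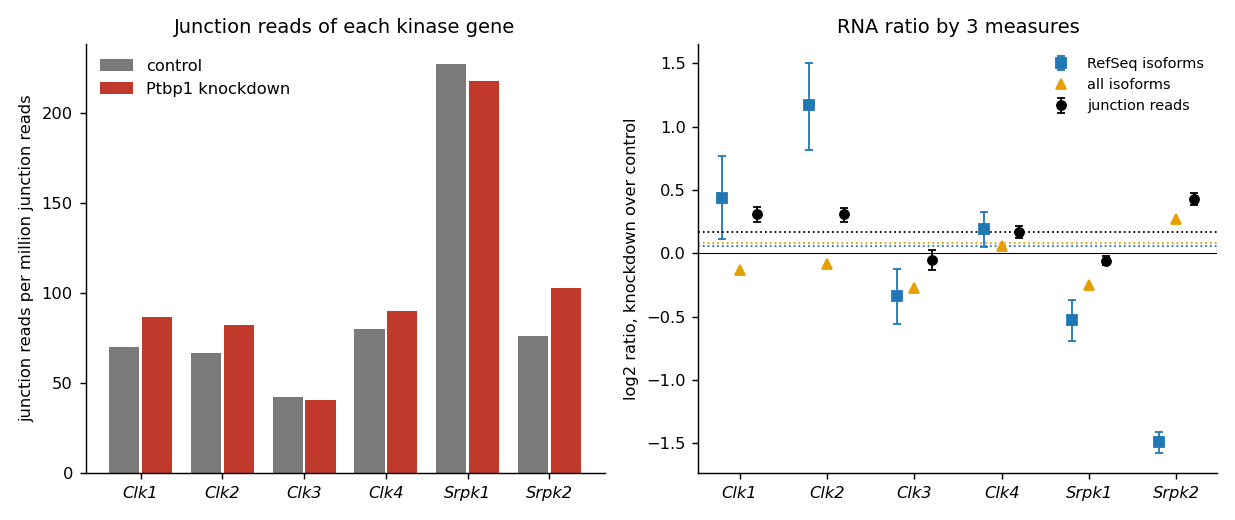
Left, junction reads of each kinase gene per 1000000 junction reads, in the control library (gray) and the Ptbp1 knockdown library (red). Right, log2 ratio of knockdown over control by RefSeq isoforms (blue squares, outermost Cufflinks bounds), by all isoforms (orange triangles, no bounds given) and by junction reads (black circles, 95% exact intervals), with the median of all genes as a dotted line in the same color. Srpk1 has the most junction reads of the 6, and the measures differ most for Clk2 and Srpk2.

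Per base of transcript, over all isoforms, Srpk1 had the highest level (126 and 150 ppm of the summed depth). Clk4 followed with 66.8 and 66.3, then Clk1 with 39.9 and 44.7 and Clk2 with 36.3 and 38.6. Srpk2 was at 30.6 and 61.5, which put it below Clk1 and Clk2 in the control and above them in the knockdown. Its only control isoform was 6436 nt long, while the assembled isoform that held 70.5% of its bases in the knockdown was 3447 nt. Depth per base depends on that length. For Srpk1, Clk1 and Clk2 the depth per base also rose while the share of read bases over all isoforms fell. Those shares were 195 and 163 ppm for Srpk1, 53.5 and 48.9 for Clk1 and 42.3 and 39.9 for Clk2. Assembled Srpk1 isoforms of the knockdown included ones of 1738 and 2118 nt. The shortest Srpk1 isoform of the control was 2454 nt. By junction reads Srpk2 was above Clk1 and Clk2 in both libraries, at 76.2 against 70.1 and 66.5 ppm in the control. Clk3 was lowest per base, with 24.7 and 24.1. Without replicates, whether neighbors in this order differ was not tested. The assembled part of each gene also differs between libraries. For Srpk1 it held 59.7% of the bases in the control and 66.7% in the knockdown, for Clk4 49.2% and 44.6%, for Clk3 43.9% and 46.8% and for Clk1 32.8% and 0.292%.

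The other genes of the pathway were given as lists. By junction reads, 2 of 14 other kinases that act on SR proteins or the spliceosome were past 1.5-fold, both up, beside 17.7% up and 1.34% down of all genes. They were Dyrk1b, with 305 and 416 reads (log2 ratio 0.80), and Hipk3, with 3559 and 4184 (0.58, at the threshold). None of 20 chaperones, carriers, cyclins and phosphatases and none of 18 SR protein substrates was past 1.5-fold, and the medians of the 3 lists were 0.21, -0.02 and -0.05, beside 0.17 for all genes. By RefSeq isoforms, 2 of 10 other kinases were up and 2 down, 1 of 19 chaperones and partners was up and 1 down, and 2 of 18 SR protein substrates were up and 3 down, beside 18.9% up and 10.8% down of all genes by that measure. Over all isoforms, none of 12 other kinases was past 1.5-fold, 1 of 20 chaperones and partners was down, and 1 of 19 substrates was up and 1 down, beside 14.3% up and 3.29% down of all genes.

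The largest RefSeq changes of these lists did not appear in the junction reads. The phosphatase subunit Ppp1cb had a log2 ratio of 1.65 by RefSeq isoforms and -0.03 by junction reads. The spliceosome kinases Cdk11b and Prpf4b were at -1.48 and -1.16 by RefSeq isoforms and at -0.27 and 0.01 by junction reads. Of the substrates, Rsrc1 was at 1.06 and -0.57, Acin1 at -1.01 and 0.11 and Srsf2 at -0.92 and -0.04.

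Pyrimidine runs of the kind bound by PTB proteins were searched as the letters TTCTCT or CTCTCT, which may overlap, on the transcribed strand of the 250 nt upstream of each region. They occurred upstream of 4 of 11 kinase cassette regions (36.4%), beside 33.8% of 6557 cassette regions, and of 19 of 68 kinase constitutive regions (27.9%), beside 32.7% of 107062. For the Clk4 67-nt exon the nearest match began 225 nt upstream, and for the 59-nt exon it began 13 nt upstream. No match lay in this window before exon 4 of Clk1, Clk3 or Clk4 or before the 167-nt exon of Clk1, while Clk2 exon 4 had 2 matches. A match is a description of letters and no measure of binding.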

How the data were processed

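RNA was sequenced from 1 control and 1 Ptbp1 knockdown library of N2A cells, as strand-specific dUTP libraries with paired reads of 100 bases, on mm9. The submitters' notes name CASAVA, TopHat and Cufflinks, and the methods add SpliceTrap. Their versions are not given in the sources used here. The authors deposited SpliceTrap inclusion ratios, as a fraction before and after correction, and for each trio the read counts on its junctions, without normalization. They also deposited coverage, a signal in reads per 100 nt for trios and in mean depth per base for isoforms. FPKM values with bounds were deposited on an unusual scale and used only as a ratio. The GTF score column deposited with the isoforms was not used, only its exon positions.

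RNA levels were coverage times length summed over RefSeq isoforms (95.9% matched to symbols), with no pseudocount, for genes of at least 1 ppm in either library. Genes needed at least 20 junction reads in each library for that measure. Isoforms with at least 50% of their length in exons of a gene were assigned to it. Trios lay in the gene's span and on its strand, with at least 20 reads in each library. Junction inclusion was the mean of both inclusion junctions over its sum with the skipping junction. Counts were compared by two-sided Fisher's exact tests, adjusted by Benjamini-Hochberg over all trios, with Wilson and Newcombe intervals. Named were all 6 members, Ptbp1 and Ptbp2, events of at least 5 points, exon 4 and its introns, introns with at least 10% retention, and up to 6 pathway genes past 1.5-fold. Dyrk1b, Hipk3, the 167-nt exons and the splice site choices were added after their values were seen, as were the all-isoform and junction measures. The members and lists were chosen with earlier results of these data known. Statistics were tested on simulated data. Sequences came from the NCBIM37 genome and names from RefSeq and GENCODE. Samtools 1.23.1, Biopython 1.88, SciPy 1.17.1, matplotlib 3.10.9, pandas 2.3.3, pysam 0.24.0 and NumPy 2.4.6 were run under Python 3.11.15.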

Additional observations from a re-analysis of the deposited data

How the results depend on the processing

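With 1 library per group no replicate could be left out. No paired analysis was possible because each group holds 1 library. Of 40 settings that bear on a comparison, 22 left the value in place and 18 moved it, and for single genes and events 67 of 92 were in place, 20 moved and 5 reversed. The all-isoform and junction measures were added after seeing the data. The median log2 ratio of the 6 kinases was -0.08 and became 0.36 with all isoforms of the Cufflinks locus, 0.53 with gene FPKM over its median and 0.24 by junction reads. These loci hold neighbors, Scamp3 with Clk2 in both libraries and, in the knockdown library, Fam189b with Clk2, Arid3b with Clk3 and Ppil3 with Clk1, and gene FPKM shifted the median of all genes by 0.32. The sign of Srpk2, at -1.49, turned to 0.27 with all isoforms of the locus or of the gene, 1.22 with gene FPKM and 0.43 by junction reads, and that of Clk2, at 1.17, to -0.08 with all isoforms of the gene. Clk3, at -0.34, was at 0.60 with the locus or gene FPKM, Srpk1, at -0.53, at 0.47 with gene FPKM, and Clk1, at 0.44, at -0.13 with all isoforms of the gene. The count of kinases past 1.5-fold, 2, became 5 at the smaller fold tried, 1 with the Cufflinks locus and 0 with all isoforms or junction reads. The Ptbp1 log2 ratio was -1.61 with all isoforms, -1.58 by coverage per base or junction reads and -1.17 by gene FPKM.

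The 9 splicing events became 2 at 10 points, 1 trio of the Clk4 67-nt exon and the Clk1 composite region. The 1 retained intron became 0 before correction, by junction reads alone or at 10 points. With the smaller inclusion junction, 0 trios passed the adjusted test. The share of kinase cassette regions with the pyrimidine letters, 36.4% beside 33.8% of all cassette regions in 250 nt, was 9.09% beside 22.0% in 100 nt, 1 of 11 regions. Other causes were not tested. Depth leaves wide intervals, such as -26.8 to 13.0 points for the Srpk2 donor and -15.0 to 3.63 for Clk3 exon 4.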
